A study of Mus musculus with 5 samples.

Results

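The genes Gata4, Gata6, Hand1, Hand2, Isl1, Mef2c and Hopx encode factors that control transcription in the developing heart. Every probe whose gene symbol matched one of these 7 names, ignoring case, was taken, which gave 9 of the 26423 probes on the array. Mef2c and Hopx had 2 probes each and the other 5 genes had 1. The probes were followed over 5 single-colour arrays of mouse cells, 1 array for each group. The knockdown groups were mesoderm cells at day 4 and cardiomyocytes at day 10 derived from embryonic stem cells (ESCs) with a knockdown of the long non-coding RNA Linc1405; the labels call these samples 1405KIpA. The reference groups were mesoderm cells at day 4 and cardiomyocytes at day 10 from control ESCs, and undifferentiated control ESCs at day 0. All groups derive from the ESC line that the labels call 46C. The ESCs were kept with serum and leukaemia inhibitory factor on feeder cells, which were removed before harvest, whereas mesoderm was grown with Bmp4 (0.2 ng/ml), VEGF (5 ng/ml) and Activin A (5 ng/ml). The cardiomyocyte medium held FGF10 (25 ng/ml), bFGF (10 ng/ml) and VEGF (5 ng/ml). The labels do not say whether the knockdown line is 1 clone, and Linc1405 itself was not analysed here, so the knockdown was not checked.

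Heart muscle is built by a small network of transcription factors that act on each other and share enhancers. GATA factors are zinc finger proteins that bind GATA motifs in genes of early endoderm, cardiac mesoderm and heart muscle. HAND factors are basic helix-loop-helix proteins that pair with E proteins and mark lateral and extraembryonic mesoderm before they mark the ventricles. ISL1 is a LIM homeodomain factor of the second heart field, whose level declines as its cells become muscle, MEF2C is a MADS box factor that switches on contractile genes, and HOPX is a small homeodomain protein that does not bind DNA and tempers the activity of SRF, the serum response factor.

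The values below are log2 intensities after quantile normalization over the 5 arrays, with a floor of 100 (6.64 on the log2 scale). Since each group held 1 array, no spread between cultures could be measured, no test was run, and precision is limited by how few arrays there were. Probe error was described by the between-probe SD, the spread of log2 differences between probes of the same gene, which between the lines was 0.207 at day 4 (over 1035 genes) and 0.272 at day 10 (over 1078 genes). For changes over time it was 0.612 for control day 4 against ESCs, 0.709 for knockdown day 10 against knockdown day 4, and 0.743 for control day 10 against control day 4. It does not cover differences between cultures. A gene was called where its brighter array lay at or above the 50th percentile of all probes (9.16) and the difference was at least 2-fold, which is 1 on the log2 scale. Quantile normalization gives every array the same distribution, so the median of 0 over all genes given below is set largely by the processing. Over genes past the filter alone that median lay between -0.12 and 0.07. Array medians as deposited lay between 344 and 745, and the knockdown array of day 10 had 1050 probes at or below 0 after background subtraction, against 0 to 38 on the other 4 arrays. Defining markers of the labelled stages, and of other tissues, were read in the control line. Of the pluripotency markers 5 of 5 measured were called lower at control day 4 than in ESCs. Of the primitive streak markers 6 of 7 were called higher in that step, and Eomes (-0.14) was not called. Of the heart muscle markers 8 of 8 measured were called higher at control day 10 than at control day 4. Over all genes past the filter 13.9% were called lower and 12.8% higher in the first step, and 19.4% lower and 19.1% higher in the second. Of other tissues, 3 of 3 blood, 4 of 6 endothelial and 4 of 6 endoderm markers were called higher in the first step. In the second these were 5 of 5 fibroblast, 5 of 6 epicardium, 5 of 6 endothelial and 5 of 8 endoderm markers. Macrophage markers were also higher then (2 of 3). Trophoblast markers (2 of 2) were called lower in both steps, and blood markers (3 of 3) in the second. In RNA from a whole culture, fewer cells of a type and less RNA per cell cannot be told apart.

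Before the comparison of the lines, the time course shows how the level of each factor moved. Gata4, Gata6, Hand1, Hand2 and Isl1 were called higher at control day 4 than in ESCs, where 12.8% of 11293 genes were called higher, and Hopx was called lower, where 13.9% were called lower. With the mean of both probes the Hopx difference in this step was -0.91, no longer past 2-fold. Mef2c, whose brighter probe lay below the intensity filter in this step, joined the higher calls with the values as deposited, with the mean of probes (2.02) and without a filter, and its dimmer probe, past the filter, gave 1.59. With the filter at the 75th percentile Hand2 and Isl1 were not called. Between control day 4 and control day 10, Gata6, Hand2, Mef2c and Hopx were called higher (19.1% of 11434 genes) and Hand1 was called lower (19.4%). The median log2 difference of the 7 genes was 3.81 for the first step and 2.03 for the second, and that of all genes was 0 in both; Hand2 and Mef2c enter the first with bounds, since both lay at the floor in ESCs. In the control line Hand1 was called higher in the first step and lower in the second, Gata6 and Hand2 were called higher in both, and Hopx was called lower and then higher. Mef2c was called in the second step alone, and Gata4 and Isl1 in the first alone, with second-step differences of 0.06 and -0.50 inside the between-probe SD. By the distance between courses centred on each gene's mean over the 5 arrays, Gata6 and Hand2 were the closest pair (1.20) and Hand1 and Mef2c the farthest apart (8.05).

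**Figure D1:**
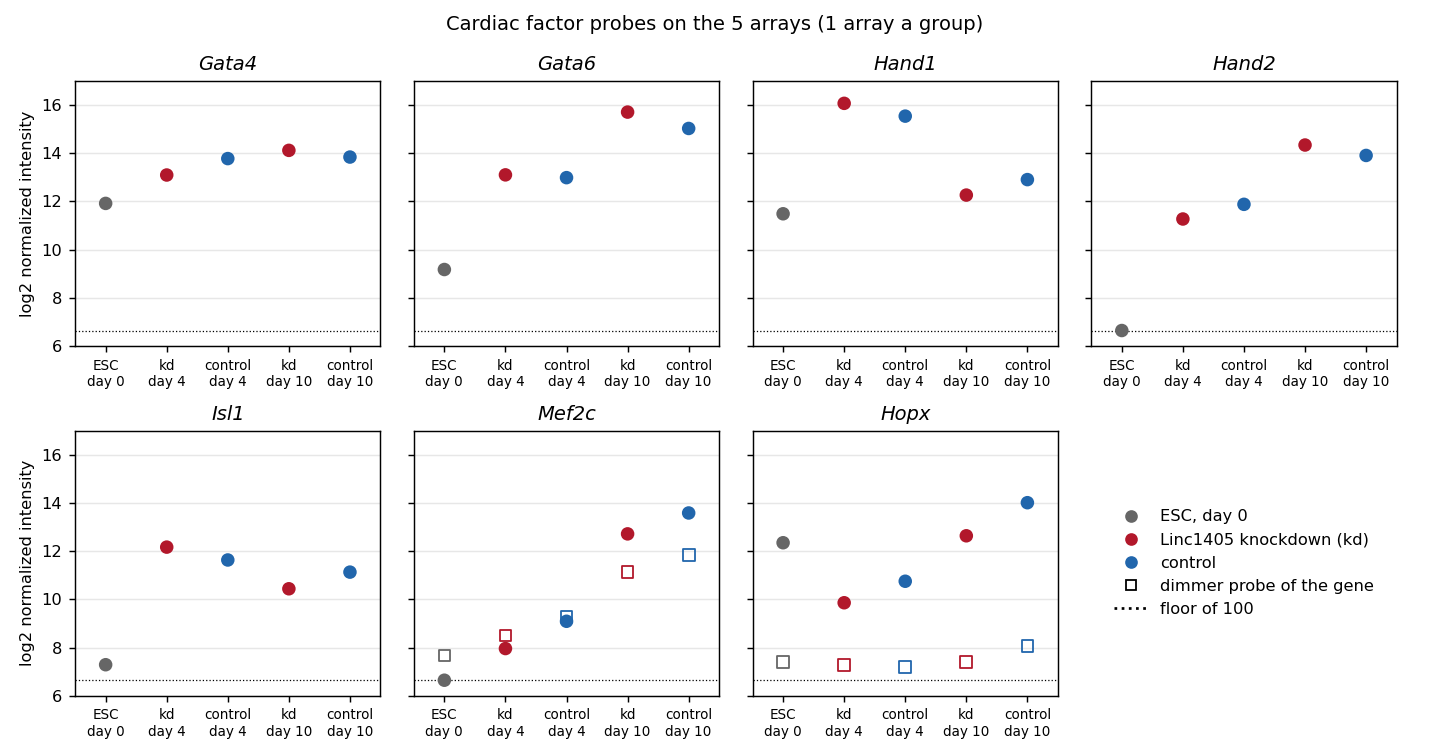
Log2 normalized intensity (y axis) of the 9 probes on the 5 arrays (x axis), with knockdown (kd) in red, control in blue and ESCs in grey; open squares are the dimmer probes of Mef2c and Hopx, and the dotted line is the floor. Hand1 is highest at day 4, Gata6, Hand2 and Mef2c are highest at day 10, and the dimmer Hopx probe stays between 7.18 and 8.06 on all arrays.

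Gata4, which opens chromatin at early heart and endoderm genes, was at 11.92 in ESCs, 13.10 in knockdown and 13.78 in control cells at day 4, and 14.12 in knockdown and 13.84 in control cells at day 10. Its lowest level was that in ESCs, and at day 4 the knockdown array lay below the control array. Its knockdown-minus-control difference was -0.68 at day 4, and 501 of 10699 genes past the intensity filter differed by at least as much in either direction. At day 10 the difference was 0.28, about the size of the between-probe SD, and 4589 of 10886 genes differed by at least as much. In the knockdown line Gata4 was 1.02 higher at day 10 than at day 4, just past 2-fold, against 0.06 in the control line. That knockdown call ended with scaling to a common 75th percentile (0.92) and with the values as deposited (0.54), and in the control line the sign turned under these settings (-0.04 and -0.74). The 3 genes with the most similar course over the 5 arrays were Nrp2, a semaphorin and VEGF coreceptor (distance 0.176), Auts2 (0.362) and Rap2c, a small GTPase (0.385), out of 7123 bright genes.

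Gata6, which overlaps with Gata4 in heart and endoderm, was at 9.18 in ESCs, 13.11 in knockdown and 12.99 in control cells at day 4, and 15.71 in knockdown and 15.03 in control cells at day 10. The knockdown array of day 10 gave its highest level. The difference between the lines was 0.12 at day 4, inside the between-probe SD, and 0.68 at day 10, which is 1.60-fold and 2.50 times that SD. Gata6 was not called at day 10, but it was past 2-fold with the values as deposited (1.17), where the median of all genes stood at 0.37. From day 4 to day 10 it was 2.61 higher in the knockdown line and 2.04 higher in the control line. Genes with the most similar course were Col4a6, a basement membrane collagen (distance 0.553), Fzd1, a Wnt receptor (0.627), and Frem1 (0.961).

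Hand1, which acts in extraembryonic and lateral mesoderm and the left ventricle, was at 11.49 in ESCs, 16.07 in knockdown and 15.54 in control cells at day 4, and 12.27 in knockdown and 12.91 in control cells at day 10. Both day 4 arrays lay far above the other 3. Its difference between the lines was 0.53 at day 4 and -0.64 at day 10, so the knockdown array was the higher one at its peak and the lower one after it. These were 2.56 and 2.36 times the between-probe SD, and neither reached 2-fold. Hand1 was 3.81 lower at day 10 than at day 4 in the knockdown line and 2.63 lower in the control line. With the values as deposited its day 10 difference between the lines was -0.09. The most similar courses were those of Prtg (distance 0.435), Runx1, a factor of blood formation (0.845), and Nfe2, a factor of red blood cells and platelets (0.882).

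Hand2, which acts in the second heart field, right ventricle and epicardium, lay at the floor in ESCs, at 11.27 in knockdown and 11.88 in control cells at day 4, and at 14.34 in knockdown and 13.91 in control cells at day 10. The step from ESCs to control day 4 was therefore at least 5.24. The lines differed by -0.61 at day 4 and by 0.43 at day 10, the opposite order to Hand1 at both days. From day 4 to day 10 Hand2 was 3.07 higher in the knockdown line (8.40-fold) and 2.03 higher in the control line (4.08-fold). Courses most similar to it were those of Capn6 (distance 1.01), Col4a6 (1.08) and Igfbp5 (1.29).

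Promoter sequences of RefSeq (GRCm38.p6, from 250 bases before to 50 after an annotated start) were at hand for 4 of the 7 genes, namely Hand2, Isl1, Mef2c and Hopx, with 7 starts in all. They were searched on both strands for the T-box site GGTGTG, chosen because the series title names the T-box factor Eomes. The search also took AGATAA, 1 form of the GATA site, CATCTG, 1 form of the E-box, and a loose pattern for MEF2. That pattern was CTA followed after 4 bases of any kind by TAG. Other forms of these sites were not searched for. In the order given, the searched letters occur in 19.0%, 11.2%, 17.2% and 3.69% of the 32851 promoters searched. The CArG box, the site of SRF, was added to the search after the Hopx promoter had been read, and it occurs in 1.63% of promoters. Over the 7 starts AGATAA was found in 2 (Hand2, and Isl1 at position 10) and CATCTG in 2 (Hand2, and a start of Mef2c not shown, at position -245). The T-box site was found in 1, the CArG box in 1 and the MEF2 pattern in 0. A match is a description of the sequence and does not show binding. The Hand2 promoter is shown because it holds letters for both of the families that Hand2 and Gata4 belong to. They are CATCTG at position -246 and, on the other strand, AGATAA at position -172, counted from the annotated start as 0. The letters TGATAA, another form of the GATA site, also occur in this promoter and that of Isl1. They were not searched for and are not marked. Capitals mark the matches in this promoter (chr8:57320733-57321032, plus strand).
Hand2: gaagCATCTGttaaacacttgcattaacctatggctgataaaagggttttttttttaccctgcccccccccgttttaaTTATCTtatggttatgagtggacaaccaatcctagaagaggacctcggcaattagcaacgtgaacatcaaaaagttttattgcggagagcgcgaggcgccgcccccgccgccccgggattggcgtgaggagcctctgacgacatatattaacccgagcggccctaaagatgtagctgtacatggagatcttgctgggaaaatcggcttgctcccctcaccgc

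Isl1 was at 7.29 in ESCs, 12.17 in knockdown and 11.64 in control cells at day 4, and 10.44 in knockdown and 11.13 in control cells at day 10. Like Hand1, it was higher in knockdown cells at day 4 (0.53) and lower at day 10 (-0.69), and these differences were 2.57 and 2.55 times the between-probe SD without reaching 2-fold. Isl1 was 1.73 lower at day 10 than at day 4 in the knockdown line, a call, and 0.50 lower in the control line, which was not called. With the values as deposited both lines were past 2-fold in this step (-2.18 for knockdown and -1.19 for control). The day 10 difference between the lines was then -0.24, inside the between-probe SD. Of motor neuron markers, another cell type that uses Isl1, Chat lay at the floor on all 5 arrays and Lhx3 stayed between 7.69 and 8.01, below the filter. The third, Mnx1, was at 9.89 in ESCs, 9.96 in knockdown and 9.79 in control cells at day 4, and 8.48 in knockdown and 8.39 in control cells at day 10. It was called lower at day 10 than at day 4 in the knockdown line (-1.47) and the control line (-1.40), and its part in the Isl1 course was not tested. Car4, a carbonic anhydrase (distance 0.315), Zfp711 (0.429) and Pwwp3b (0.572) had the most similar courses.

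Mef2c was read by 2 probes. The brighter one lay at the floor in ESCs, at 7.96 in knockdown and 9.09 in control cells at day 4, and at 12.72 in knockdown and 13.59 in control cells at day 10. The dimmer one was at 7.67 in ESCs, 8.51 in knockdown and 9.27 in control cells at day 4, and 11.14 in knockdown and 11.84 in control cells at day 10. Both probes therefore put knockdown below control at both days. The differences between the lines were -1.13 and -0.76 at day 4, where the brighter probe lay below the intensity filter on both arrays and could not be called, and -0.87 and -0.70 at day 10. The climb from day 4 to day 10 was 4.76 in the knockdown line and 4.50 in the control line on the brighter probe, and 2.63 and 2.57 on the dimmer one. Itga8, an integrin subunit (distance 0.893), Icam2, an adhesion molecule of endothelium (0.968), and Maf (1.07) followed the most similar courses. Of its 3 annotated starts, 1 is shown because it is the only start among the 7 with a T-box site, at position -215, in capitals (chr13:83523406-83523705, plus strand).
Mef2c: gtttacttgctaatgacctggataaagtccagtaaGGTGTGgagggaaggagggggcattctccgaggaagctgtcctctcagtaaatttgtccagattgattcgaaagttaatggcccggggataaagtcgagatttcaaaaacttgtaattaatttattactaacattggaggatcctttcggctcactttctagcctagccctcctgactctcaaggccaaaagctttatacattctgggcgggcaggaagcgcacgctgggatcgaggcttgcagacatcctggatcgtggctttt

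Hopx was the only one of the 7 genes called between the lines. Its brighter probe was at 12.35 in ESCs, 9.86 in knockdown and 10.75 in control cells at day 4, and 12.64 in knockdown and 14.01 in control cells at day 10. Knockdown cells were therefore lower at both days, by 0.89 at day 4 and, past 2-fold, at day 10, where the difference was -1.37, a level 2.59-fold lower. Of 10886 genes past the filter at day 10, 336 differed by at least as much in either direction. The call ended with the values as deposited (-0.83), where the median of all genes was 0.37, and it held with scaling to the 75th percentile, with loess centring and with the mean of both probes (-1.01). The dimmer Hopx probe lay below the filter throughout, at 7.41 in knockdown and 8.06 in control cells at day 10, with a difference of -0.65, and at 7.28 in knockdown and 7.18 in control cells at day 4. The labels do not say which part of the gene each probe reads. Courses similar to that of Hopx were those of Hspb2, a small heat shock protein of muscle (distance 0.779), C1qc, a complement subunit (0.811), and B2m (0.873). The promoter of its upstream start is shown because it holds a CArG box, at position -83 and in capitals, whose factor SRF is the known partner of HOPX (chr5:77115074-77115373, minus strand).
Hopx: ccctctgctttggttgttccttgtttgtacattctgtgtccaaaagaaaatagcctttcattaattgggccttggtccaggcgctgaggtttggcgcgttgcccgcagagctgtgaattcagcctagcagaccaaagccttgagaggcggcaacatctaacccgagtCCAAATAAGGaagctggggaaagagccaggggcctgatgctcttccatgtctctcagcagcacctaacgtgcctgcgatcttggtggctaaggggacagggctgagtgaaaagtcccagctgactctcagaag

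At day 4 the comparison of knockdown with control asks how the line differs at the mesoderm stage. Of the 7 genes 6 passed the intensity filter and 0 were called in either direction, beside 0.804% of 10699 genes called higher and 1.47% called lower. Isl1, Hand1 and Gata6 lay above 0 and Hand2, Gata4, Hopx and Mef2c below it, with a median of -0.61 against 0 for all genes. That median is the value of Hand2, and the next gene above it is Gata6 at 0.12. The widest gap between 2 of the genes was 1.67, from Isl1 to Mef2c, and a gap of this kind does not move with the scaling of an array. At day 10, which asks the same of the cardiomyocyte stage, 7 passed, 0 were called higher and 1, Hopx, was called lower, beside 2.5% of 10886 genes called higher and 3.61% called lower. Gata6, Hand2 and Gata4 lay above 0 and Hand1, Isl1, Mef2c and Hopx below it, with a median of -0.64 against 0 for all genes. That median is the value of Hand1, and the next gene above it is Gata4 at 0.28. With the values as deposited Hand1 was again the middle gene, at -0.09, where the median of all genes was 0.37. The widest gap was 2.05, from Gata6 to Hopx. The 2 comparisons share no array, and Gata4, Hand1, Hand2 and Isl1 had opposite signs in them, while Mef2c and Hopx were below 0 in both and Gata6 was above 0 in both.

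**Figure D2:**
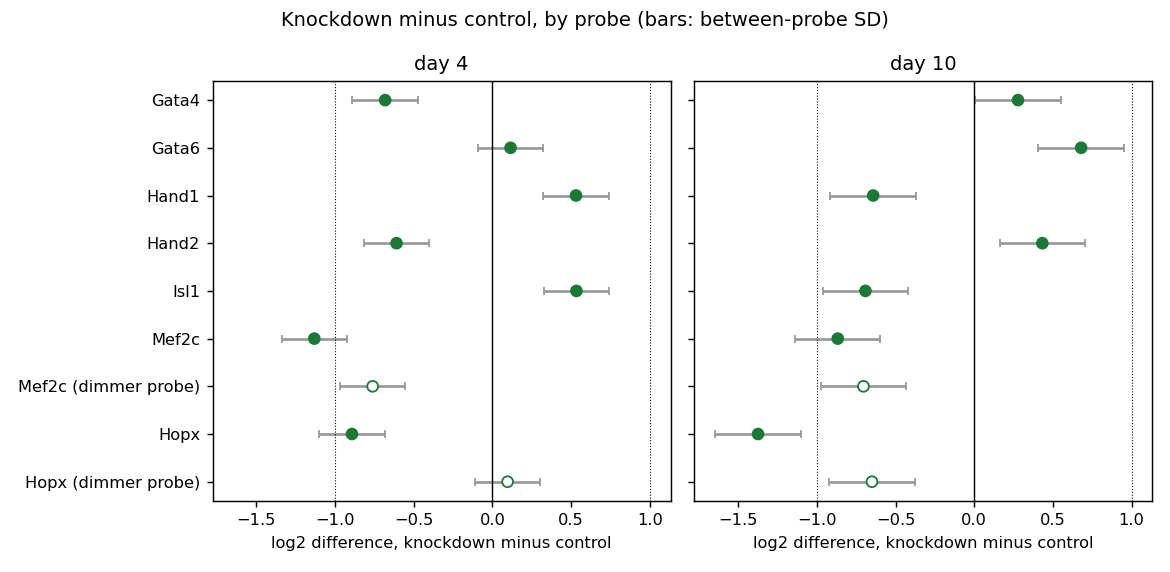
Log2 difference of knockdown minus control (x axis) for each probe (rows) at day 4 (left) and day 10 (right); open circles are dimmer probes, bars are the between-probe SD and dotted lines mark 2-fold. Hopx at day 10 (-1.37) and the brighter Mef2c probe at day 4 (-1.13, below the intensity filter) lie beyond the dotted lines.

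The course of the knockdown line from day 4 to day 10 can be set beside that of the control line. In the knockdown line all 7 genes were called: Gata4, Gata6, Hand2, Mef2c and Hopx higher (18.7% of 11416 genes) and Hand1 and Isl1 lower (18.1%). In the control line 5 were called, as given above. The knockdown course minus the control course was 1.04 for Hand2, 0.96 for Gata4, 0.56 for Gata6, 0.26 for Mef2c, -0.48 for Hopx, -1.17 for Hand1 and -1.23 for Isl1. Each such value is the day 10 difference between the lines less the day 4 difference, so it adds no measurement to the comparisons above.

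**Figure D3:**
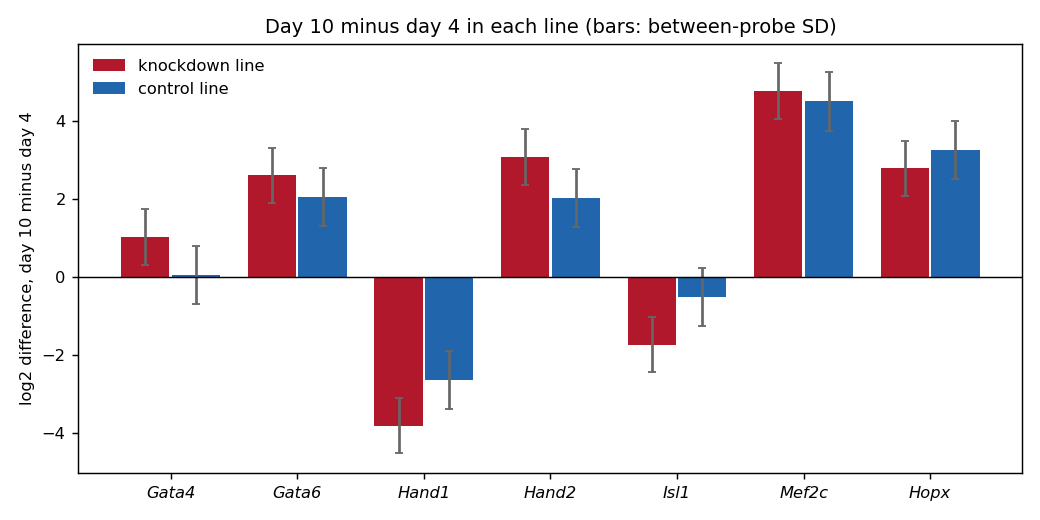
Log2 difference of day 10 minus day 4 (y axis) for the 7 genes (x axis) in the knockdown line (red) and the control line (blue), with the between-probe SD as error bars. Mef2c has the tallest bars in both lines (4.76 and 4.50), and Hand1 the lowest (-3.81 and -2.63).

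Relatives and partners of the 7 factors were read from lists chosen for known roles. List medians were taken over all measured genes, including those below the filter. Beside the list counts below, 2.5% of all genes past the filter were called higher at day 10 and 3.61% lower. At day 4 these shares were 0.804% and 1.47%. Of the GATA family and the FOG cofactors of GATA proteins, 6 of 6 were measured, and at day 10 Zfpm2, the FOG cofactor of GATA4 in heart, and Gata2, a factor of blood and endothelium, were called higher in knockdown cells, out of 5 past the filter. Zfpm2 was at 13.40 in knockdown and 12.23 in control cells (1.17), and Gata2 was at 9.93 and 8.88 (1.04, and 1.11 on its other probe). The list median was 0.52, and at day 4 it was -0.08 with 0 of 5 called. Gata5, Gata3, Gata1 and Zfpm1 differed by 0.52, -0.11, -0.28 and 0.52 at day 10. The 5 bHLH partners of HAND proteins had 0 of 5 called at day 10 (median 0.37), with Tcf4, an E protein gene, at 0.52 and Twist1 at -0.49, and 1 of 5 at day 4 (median 0.23), Twist2, a mesenchymal factor, at 12.06 in knockdown and 10.69 in control cells (1.37). Both medians are the value of the brighter probe of Tcf12, another E protein gene, whose dimmer probe gave -0.29 at day 10 and -0.32 at day 4. Of the LIM partners of ISL1, 0 of 4 past the filter were called on either day, with medians of 0.21 at day 10 and 0.08 at day 4. The day 4 median is the value of Lhx3, which lay below the filter. Ldb2 at day 4 was at 8.79 in knockdown and 9.75 in control cells (-0.95). Lmo2 at day 10 was at 10.99 in knockdown and 11.67 in control cells (-0.68).

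Among the MEF2 family, SRF cofactors and class IIa deacetylases 9 of 11 genes were measured, Mef2a and Myocd being unnamed here. At day 10, 1 of 8 past the filter was called, Hdac9, a deacetylase that represses MEF2 proteins, at 8.61 in knockdown and 11.01 in control cells (-2.40). The probes disagreed for Srf, with 0.65 on the brighter and -0.06 on its partner, and likewise for Mrtfb (0.72 and -0.15). The list median was 0.13 at day 10. At day 4 it was 0, which is the value of Hdac9 at the floor on both arrays and so no measured difference, and 0 of 7 were called. Of other cardiac transcription factors 15 of 19 were measured. At day 10, 3 of 13 were called higher in knockdown cells, the nuclear receptor genes Nr2f1 (1.65) and Nr2f2 (1.04) and the homeobox gene Meis1 (1.08), and 1 was called lower, Tbx20 (-1.39). The median was -0.32 at day 10, and -0.09 at day 4 with 0 of 10 called.

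Heart genes on which these factors are known to act formed the list with the lowest median among the lists of relatives, partners and targets at day 10, -1.02. Of its 15 genes 11 were measured, without Myh6, Myh7, Myl2 and Smyd1, and 6 of 10 past the filter were called lower in knockdown cells and 0 higher. Over all genes past the filter 3.61% were called lower and 2.5% higher. The heart muscle gene Tnnt2, which is not in this list, was called higher in knockdown cells (3.05). Tnnc1, the slow troponin C of heart, was at 13.51 in knockdown and 15.15 in control cells (-1.64). Xirp1, a MEF2 target of the intercalated disc, was at 10.94 and 12.56 (-1.62). For Fgf8 the brightest probe gave -1.72 and the remaining ones -0.49 and -0.05. The other genes called were Nppa (-1.41) and Nppb (-1.23), the natriuretic peptide genes, and Actc1, cardiac actin (-1.02). At day 4 the median was 0.05 and 0 of 9 were called. In the BMP pathway, which induces Gata4, Hand1 and Hand2 in mesoderm, 14 of 15 genes were measured, 1 of 12 past the filter was called lower at day 10, the ligand gene Bmp7 (-1.13), and 0 of 12 were called at day 4, with medians of -0.05 and 0.07. Over all genes the median difference was 0 at both days.

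**Figure D4:**
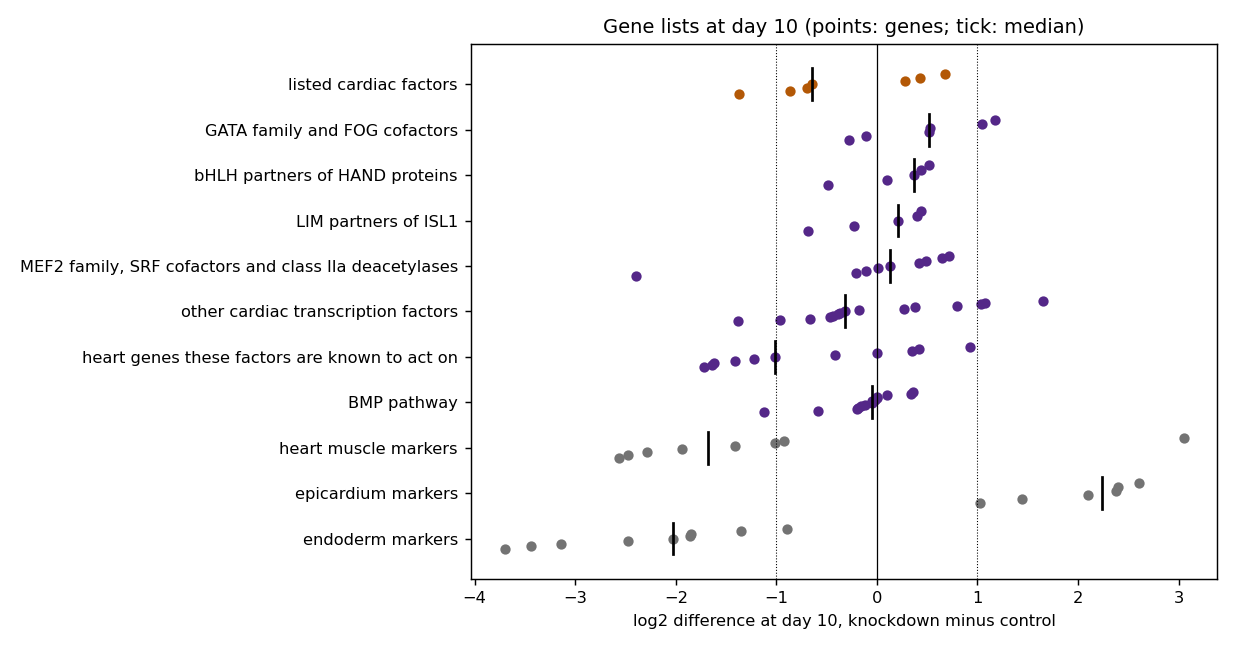
Log2 difference of knockdown minus control at day 10 (x axis) for the listed cardiac factors, 7 lists of relatives, partners and targets, and 3 marker lists (rows); points are genes, black ticks are medians and dotted lines mark 2-fold. The targets of these factors have a median of -1.02, the epicardium markers lie at 1.02 or above, and the cardiac factors lie on both sides of 0.

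At day 10 some markers of heart muscle, epicardium, endoderm and macrophages were called between the lines, and 0 of the endothelial and fibroblast markers were. Over all genes past the filter 2.5% were called higher and 3.61% lower at day 10, and 0.804% and 1.47% at day 4. Marker levels were also summed as normalized intensities on the linear scale, where the brightest genes weigh most. The 8 heart muscle markers measured of 10 summed to 220888 in knockdown and 436513 in control cells, with 6 of 8 called lower and 1, Tnnt2, called higher. The brightest of the 8 was Actc1, at 16.81 in knockdown and 17.82 in control cells. Tnnt2 was at 15.94 in knockdown and 12.89 in control cells (3.05), the widest difference among the 8, and Ttn was next at -2.57. The 6 epicardium markers, a tissue that also expresses Gata4, Gata6 and Hand2, summed to 154198 in knockdown and 44765 in control cells, with 6 of 6 called higher. The 9 endoderm markers, another tissue that expresses Gata4 and Gata6, summed to 17793 in knockdown and 112780 in control cells, with 5 of 6 past the filter called lower and Foxa1 at the floor in knockdown cells. Endothelial markers, for cells that express Mef2c, summed to 33562 and 39442 over 6 genes, with 0 of 6 called, macrophage markers to 4095 and 8613 over 3 genes, with 2 of 3 called lower, and fibroblast markers to 199855 and 196477 over 6 genes, with 0 of 5 called. At day 4 the sums were 6546 in knockdown and 13302 in control cells for endoderm, with 3 of 6 called lower, 18627 and 29609 for endothelium, with 1 of 6 called lower, and 56847 and 91484 for the primitive streak, with 1 of 7 called lower. The part of these cell types in the differences of the 7 genes was not tested.

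**Figure D5:**
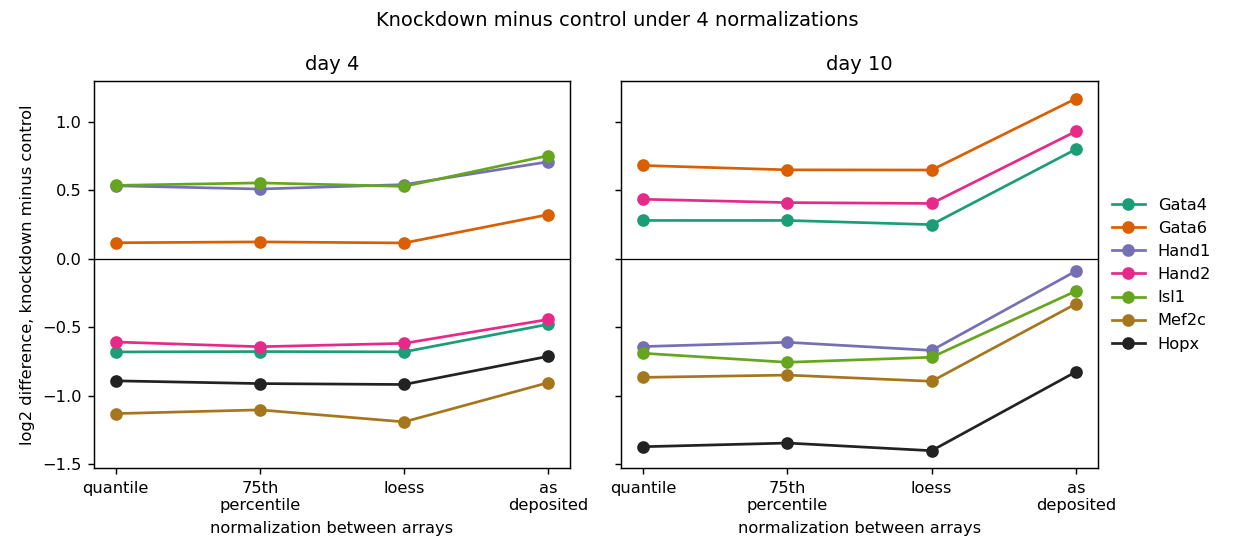
Log2 difference of knockdown minus control (y axis) for the 7 genes (colours, brightest probe) under 4 ways of normalizing between arrays (x axis) at day 4 (left) and day 10 (right). The lines run nearly parallel: with the values as deposited all 7 genes shift up together at day 10, Gata6 to 1.17 and Hopx to -0.83, and no gene crosses 0.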

How the data were processed

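Transcript levels were read on 5 single-colour Cy5 arrays, 1 for each group, so no replicate spread exists. Per the labels the submitters used Agilent Feature Extraction 10.7.1.1, and other steps are not given in the sources used here. The deposited values were intensities on a linear scale, background-subtracted, with medians that differ between arrays. They were quantile normalized over the 5 arrays, floored at 100 and converted to log2. Of 26423 probes 20377 carried 1 gene symbol, updated through a GRCm38.p6 gene table (18213 current, 2126 by synonym, 38 kept), giving 17742 genes, each represented by its brightest probe. Differences were taken between pairs of arrays, without p-values, and called at 2-fold with the brighter array at or above the 50th percentile, in Python 3.11.15. The calling steps were run on simulated arrays as a check of the code, with planted changes of 4-fold or more in brighter probes. That run does not cover changes near 2-fold, probes near the floor or spread between cultures. The members and lists were chosen with earlier results of these data known. Named were all probes of the members, up to 3 genes of a list with the widest day 10 difference, other GATA genes, the genes with the most similar course (Euclidean distance of centred log2 values), and, chosen after their values were seen, genes that spell out a count of 5 or fewer or a marker. Alternatives were the values as deposited, scaling to the 75th percentile, loess centring (span 0.3), floors of 50 and 200, the mean of probes, other filters and a 4-fold threshold. Further lists held pluripotency, blood, neural, trophoblast and skeletal muscle markers.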

Additional observations from a re-analysis of the deposited data

Results flagged for a closer look

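For 4 genes the knockdown-minus-control difference had opposite signs at days 4 and 10, with each value beyond the between-probe SD after quantile normalization. They were Gata4 (-0.68 at day 4 and 0.28 at day 10), Hand2 (-0.61 and 0.43), Hand1 (0.53 and -0.64) and Isl1 (0.53 and -0.69). With 1 array a group, the difference between the days was not tested. How many of all genes meet this rule was not counted, so whether 4 is an unusual number cannot be said. Of genes past the filter at day 4, 4.68% differed by at least as much as Gata4, 5.88% as Hand2, 7.46% as Hand1 and 7.36% as Isl1. At day 10 these shares were 42.2%, 25.2%, 13.5% and 12.0%. The between-probe SD leaves out differences between cultures. The value of Gata4 at day 10 was 1.02 times that SD, and with loess centring (0.25) it lay inside it. With the values as deposited, the day 10 values of Isl1 (-0.24) and Hand1 (-0.09) lay inside that SD. The signs of the 4 genes at both days held under the alternatives.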

How the results depend on the processing

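Of 235 differences of single probes or genes recomputed under alternatives, 204 moved by no more than the between-probe SD and 31 moved by more. The part that moved by more was 18 of 45 with the values as deposited and 7 of 10 with the mean of probes. It was 2 of 45 with scaling, 0 of 45 with loess centring and 2 of 45 with each floor. A floor of 50 or 200 cannot move a difference between arrays that both lie above 200. Most values under the 2 floors were therefore fixed in advance. Of the 235, 5 changed sign, none of them a difference past 2-fold. The order of the 7 genes by knockdown-minus-control difference at day 10 was the same under the 4 normalizations, with a widest gap of 1.99 to 2.05. At day 4 Isl1 and Hand1 changed places with loess centring. The floors of 50 and 200 could not change these orders, since the brightest probes of the 7 genes lay above 200 at days 4 and 10. Among the 7 genes, 1 was called at day 4 without a filter (Mef2c), and 0 were called at day 10 with a 4-fold threshold. Over all genes, 665 were apart at day 10 between the lines and 1253 were with the values as deposited, and 243 were apart at day 4 and 367 were without a filter. With the filter at the 75th percentile, 57 genes were apart between the lines at day 4, 297 at day 10, 1438 for control day 4 against ESCs, 2496 for control day 10 against control day 4 and 2396 for knockdown day 10 against knockdown day 4. With a 4-fold threshold these counts were 30, 123, 1108, 1429 and 1304. The lower counts follow from fewer genes tested or a stricter threshold. With the values as deposited the median of all genes stood at 0.20 at day 4, 0.37 at day 10, 0.17 for control day 4 against ESCs, -0.72 for the control course and -0.58 for the knockdown course to day 10. The share of calls that were higher then became 53.6%, 87.2%, 64.5%, 16.6% and 24.7%, against 35.4%, 40.9%, 47.9%, 49.6% and 50.9% as reported, and with loess centring it was 61.6% and 62.6% for the 2 courses. The cause was not tested. Intensities at the floor set only bounds, for Hand2 and Mef2c in ESCs.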

Other observations

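Outside the comparisons above, the remaining marker lists gave the following values. Blood markers had 3 of 5 genes measured and summed to 28746 in knockdown and 25586 in control cells at day 4, with Klf1, a factor of red blood cells, at 12.23 in knockdown and 10.91 in control cells (1.32). At day 10 they summed to 2741 in knockdown and 4223 in control cells. Trophoblast markers, for a tissue that uses Hand1, summed to 5849 in knockdown and 8545 in control cells at day 4 and to 2984 and 1031 at day 10. At day 10 Ascl2 and Tfap2c, both called higher in knockdown cells, differed by 1.32 and 2.20, while Elf5, a defining gene of that tissue, lay at the floor on all 5 arrays. Pluripotency markers summed to 9613 in knockdown and 10818 in control cells at day 4 and to 4331 and 6228 at day 10, and 0 were called between the lines on either day. Neural markers summed to 1889 and 1623 at day 4 and to 1819 and 1831 at day 10, with 0 called. Neither skeletal muscle marker was named here.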
